A study of Mus musculus with 8 samples.

Results

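The genes described here are 10 genes of iron uptake, storage and export and of heme recycling: Tfrc, Steap3, Fth1, Ftl1, Slc40a1, Slc11a1, Hmox1, Hp, Cd163 and Blvrb. They were chosen by name, as the entries of the count table under one of these symbols, and all 10 were found among its 21878 symbols. The study asked how restraint stress changes gene expression in the blood cells of mice. Peripheral blood was taken for RNA sequencing in 4 stress samples, from mice restrained in a ventilated tube for 6 hours, and in 4 control samples, from littermates that were not restrained. Both groups were wild-type (WT) female C57BL/6 mice of 6-8 weeks age, and both went without food and water during these hours. The total count per sample was 31471145 to 39014775 in the control group and 25978683 to 29655725 in the stress group. Counts outside haemoglobin genes were 11412556 to 18774818 and 6355715 to 11009882. Neither the total counts nor these counts overlapped between the groups (two-sided exact permutation test, n = 4 per group, p = 0.0286 for each). Haemoglobin genes took 51.9% to 63.8% of the control counts and 61.2% to 75.5% of the stress counts (two-sided exact permutation test, n = 4 per group, p = 0.0571).

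Cells take up iron bound to transferrin through the transferrin receptor, reduce it in the endosome, keep what they do not use inside the shell of ferritin, and release it through ferroportin. Most iron of the body circulates in the haemoglobin of red cells, and immature red cells (reticulocytes) still carry the RNA of haemoglobin, ferritin and the transferrin receptor. When red cells break down, haptoglobin binds the free haemoglobin, and macrophages take up the complex through Cd163. Heme oxygenase then opens the heme and frees its iron and biliverdin, and biliverdin reductase acts on the biliverdin.

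Transcripts of this pathway are known to carry iron-responsive elements, short hairpins bound by iron regulatory proteins when iron is scarce, which blocks translation of ferritin RNA and protects Tfrc RNA from decay. They are shown because they are the sequence feature that ferritin and Tfrc share, on opposite ends of the transcript. The loop letters CAGTGN, with 5 bases on each side able to pair (G-T pairs allowed) and an unpaired C before them, were searched on the transcript strand of the GENCODE M21 models (GRCm38). A match lay in a 5′ UTR of 28 of 21899 coding genes (0.128%) and in a 3′ UTR of 127 (0.580%). Fth1 (chr19:9982732-9982760, plus strand) and Ftl1 (chr7:45459779-45459807, minus strand) each had a match in the 5′ UTR, and Tfrc had 4 in the 3′ UTR, at chr16:32631219-32631247, chr16:32631598-32631626, chr16:32631663-32631691 and chr16:32631710-32631738 (plus strand). Slc40a1 and, outside the 10 genes, Alas2 also had a match in the 5′ UTR. The sequences run 5′ to 3′ as DNA letters, with the 6 bases of the loop in capitals:
Fth1: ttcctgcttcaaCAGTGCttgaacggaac
Ftl1: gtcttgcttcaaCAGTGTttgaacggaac
Tfrc element 1: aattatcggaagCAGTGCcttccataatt
Tfrc element 2: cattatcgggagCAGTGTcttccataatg
Tfrc element 3: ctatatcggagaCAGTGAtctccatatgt
Tfrc element 4: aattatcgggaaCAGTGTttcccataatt

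More than 1 scale was needed to read the counts, because the haemoglobin share differed between libraries. CPM (counts scaled to a library of 1000000) and log2 fold changes (stress over control) are on the TMM-normalized library size, which takes most genes as unchanged, unless another scale is named, and CPM on this scale do not sum to 1000000. The median log2 fold change over the 11718 tested genes was -0.03 with TMM, -0.82 when libraries were scaled by total counts alone, and -0.43 when scaled by the counts outside haemoglobin genes, over the 11713 genes left without them, a scale chosen after seeing the data. The TMM factors were 1.01 to 1.77 in the control group and 0.507 to 1.10 in the stress group, and stress replicate 3 had the lowest factor and the fewest counts outside haemoglobin genes (6355715). The test was edgeR's quasi-likelihood test, adjusted by the Benjamini-Hochberg method over all 11718 genes reaching 10 counts in 4 samples or more, and a gene is said to have risen or fallen only at an adjusted p below 0.05.

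All 10 genes were tested. Hp, Hmox1 and Slc11a1 rose in the stress group, which is 3 of 10 genes against 10.4% of all tested genes, and 0 fell, against 3.69%. At an unadjusted p below 0.05 of the same test 7 were higher and 0 lower (all genes 18.2% and 13%). Past an adjusted p of 0.05 limma-voom placed 6 and 0 (all genes 11.6% and 3.84%), and DESeq2 5 and 0 (all genes 12.2% and 4.76%). Hp and Hmox1 also passed the thresholds of the study, a log2 fold change above 1 in size and an adjusted p below 0.01, as did 1.69% of all tested genes upward and 0.0171% downward (0 of the 10). With DESeq2 these thresholds were met by 2.45% and 0.0958% of all genes and by 2 of the 10 upward and 0 downward. The log2 fold changes of the 10 genes had a median of 0.78, against -0.03 over all tested genes. On total counts alone 1 gene was higher (Hp) and 1 lower (Tfrc), against 0.444% and 49.6% of all tested genes, and the median of the 10 was 0.05. None of the 10 met the thresholds of the study on that scale (0.119% of all tested genes upward and 6.21% downward). On the scale of counts outside haemoglobin genes 4 were higher (Hp, Hmox1, Ftl1 and Blvrb, against 4.69%) and 1 lower (Tfrc, against 33.7%), and Hp alone met the thresholds of the study (0.487% of all genes upward and 1.17% downward). Relative to the median of all tested genes, log2 fold changes with TMM and on total counts were close, from 1.61 with TMM and 1.71 on total counts for Hp to -0.19 and -0.20 for Tfrc.

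**Figure D1:**
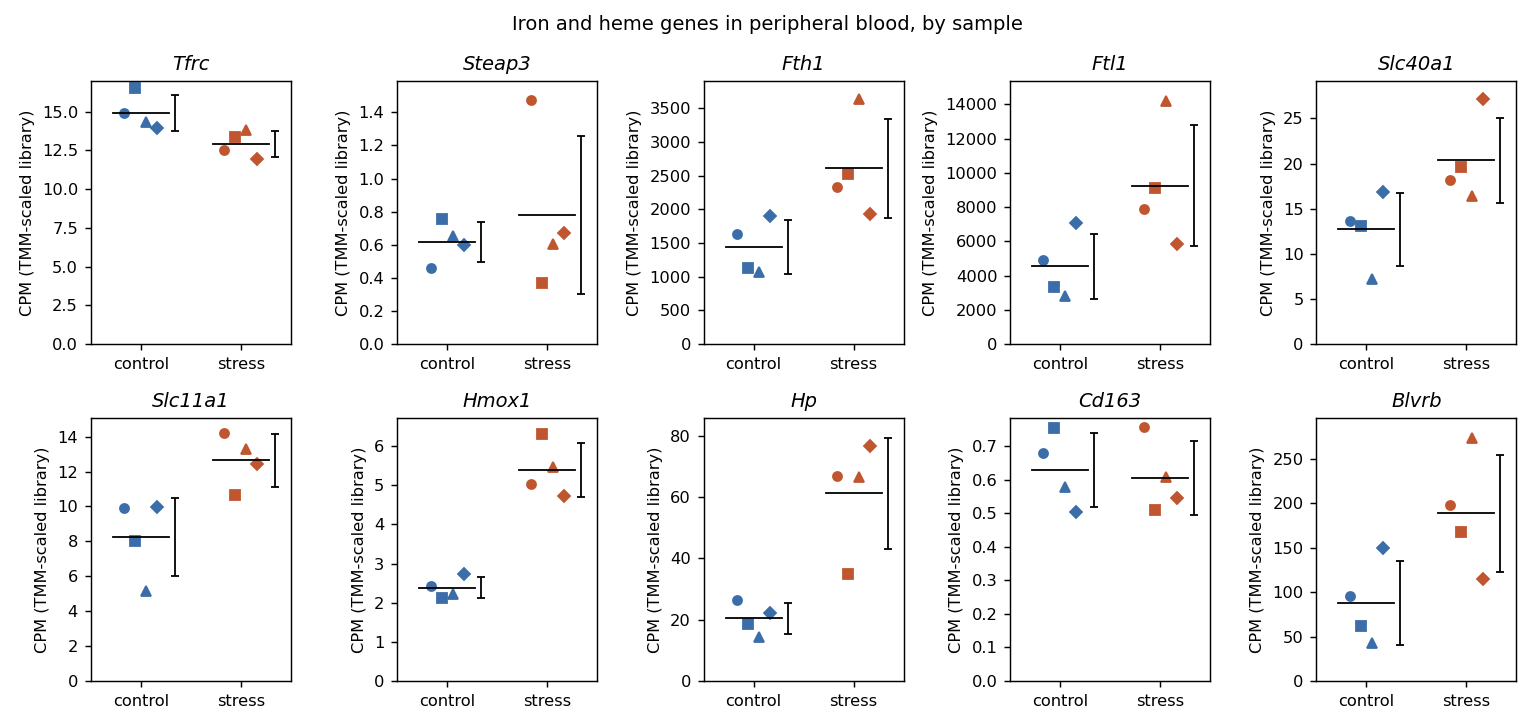
CPM on the TMM-normalized library (vertical axes, starting at 0) of the 10 genes in the control (blue) and stress (red) samples. Each point is a sample, with the circle, square, triangle and diamond for replicates 1 to 4, the line is the group mean and the bar the SD (n = 4). The 4 stress samples lie above all control samples for Fth1, Slc11a1, Hmox1 and Hp and below them for Tfrc.

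**Figure D2:**
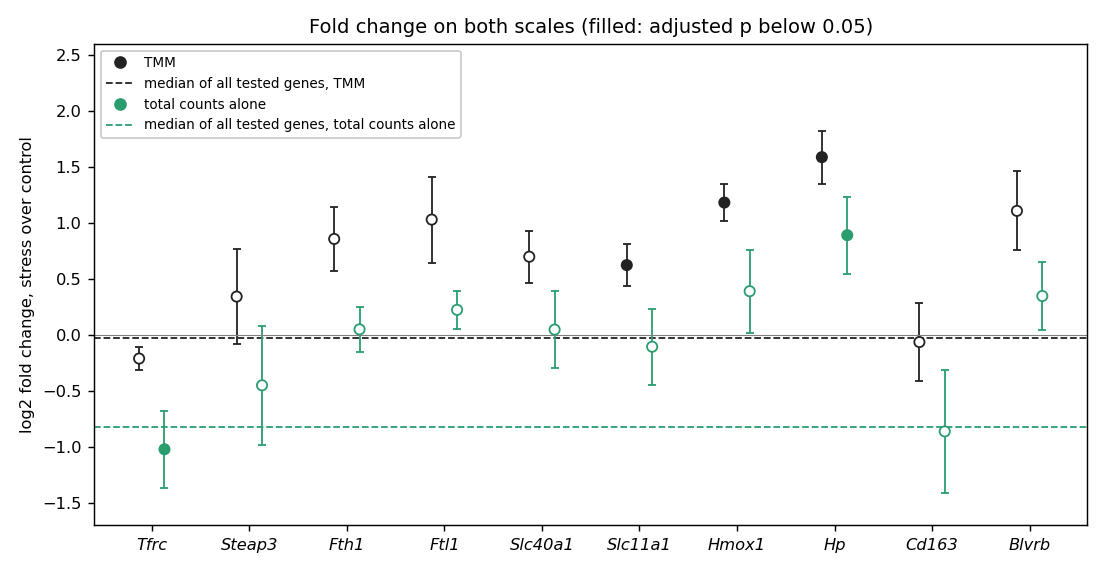
Log2 fold change (stress over control) of each gene with its standard error, with TMM (black) and on total counts alone (green). Filled points have an adjusted p below 0.05, and the dashed lines are the medians of all tested genes, -0.03 and -0.82. Each gene sits lower on total counts, where Slc11a1 and Steap3 turn below 0.

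The samples separated without overlap for 5 of the 10 genes with TMM. Fth1, Slc11a1, Hmox1 and Hp had all stress samples above all control samples, as did 11.1% of all tested genes, and Tfrc had every stress sample below, as did 9.88%. On total counts alone Tfrc still separated (every stress sample below, 23.5% of all tested genes), and 0 of the 10 genes had every stress sample above (0.247%).

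Levels were compared between genes as CPM per kilobase of exon, with the exons of all transcripts merged. In the control group Ftl1 was highest, at 2092 to 5272 CPM per kilobase, followed by Fth1 at 311 to 549.7 and Blvrb at 15.3 to 53.9. Hp came next at 8.97 to 16.5 CPM per kilobase and overlapped Blvrb. Tfrc (2.25 to 2.67), Slc11a1 (1.40 to 2.69), Slc40a1 (0.797 to 1.88) and Hmox1 (1.22 to 1.57) followed, each overlapping the next, and Cd163 (0.0924 to 0.138) and Steap3 (0.0808 to 0.132) were lowest and overlapped each other. In the stress group the first 4 genes kept this order, and Tfrc (1.94 to 2.23 CPM per kilobase) moved from place 5 to place 8 by mean, below Slc11a1 (2.88 to 3.83) and Hmox1 (2.71 to 3.60), while its range overlapped that of Slc40a1 (1.83 to 3.02). Hp and Blvrb overlapped in this group too, as did Slc11a1 with Hmox1, Hmox1 with Slc40a1, and Steap3 with Cd163.

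Tfrc (chr16:32608920-32632794, plus strand), the transferrin receptor, brings transferrin-bound iron into the cell. It was measured at 14.9, 16.5, 14.3 and 13.9 CPM in control replicates 1 to 4 and at 12.5, 13.4, 13.8 and 12.0 CPM in stress replicates 1 to 4. Every stress sample lay below every control sample, by a small margin between control replicate 4 and stress replicate 3. The mean went from 14.9 ± 1.14 to 12.9 ± 0.824 CPM (mean ± SD, n = 4 each), with a log2 fold change of -0.21 (standard error 0.10) that did not pass edgeR's quasi-likelihood test (adjusted p = 0.179). Scaled by total counts it was 17.4, 24.3, 25.4 and 14.0 CPM in the control samples and 7.01 to 13.2 CPM in the stress samples, again without overlap, and the log2 fold change of -1.02 passed (standard error 0.34, adjusted p = 0.0160, same test). It also passed on the counts outside haemoglobin genes (-0.62, adjusted p = 0.0138), and over the 18 alternative fits the adjusted p ran from 0.0138 to 0.434. Steap3 (chr1:120190757-120272705, minus strand), which reduces iron in the endosomes of immature red cells, was at the limit of the depth, with 17 to 45 counts in the control samples and 8 to 33 in the stress samples. The groups overlapped, and stress replicate 1 was highest at 1.47 CPM against 0.371 to 0.672 in the other stress samples. Its log2 fold change of 0.34 (adjusted p = 0.622 in edgeR's quasi-likelihood test, standard error 0.42) was below 0 on total counts (-0.45) and without stress replicate 1 (-0.14), so no direction can be given.

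The ferritin genes were the most abundant of the 10. Fth1 (chr19:9980598-9985098, plus strand) encodes the heavy chain, which oxidizes iron for storage, and Ftl1 (chr7:45457944-45459884, minus strand) the light chain, which helps the mineral core to form. Fth1 was measured at 1632, 1135, 1077 and 1907 CPM in control replicates 1 to 4 and at 2323, 2529.7, 3640.0 and 1923 CPM in stress replicates 1 to 4. Ftl1 was measured at 4923, 3356, 2803 and 7064 CPM in the control samples and at 7902, 9105, 14204 and 5843 CPM in the stress samples. Stress replicate 3 was highest for both genes. The groups met without overlap for Fth1 (control replicate 4 just below stress replicate 4) and overlapped for Ftl1. The log2 fold changes were 0.86 (standard error 0.28, adjusted p = 0.0593) for Fth1 and 1.03 (standard error 0.38, adjusted p = 0.0877) for Ftl1, neither past edgeR's quasi-likelihood test. Fth1 passed with no count filter (adjusted p = 0.0404), with DESeq2 (0.00283), with limma-voom (0.0369) and without control replicate 4 (0.0419) or stress replicate 4 (0.0386), and over the 18 alternative fits the adjusted p ran from 0.00283 to 0.846. Ftl1 passed on the counts outside haemoglobin genes (0.0293) and without control replicate 4 (0.0437), and the adjusted p ran from 0.0293 to 0.251. Scaled by total counts Fth1 lay between 1670.4 and 1918 CPM in the control samples and between 1839 and 2116 in the stress samples, and the log2 fold change was 0.05 (adjusted p = 0.846 in the same test, standard error 0.20). Ferritin genes have near-identical copies in the mouse genome among which reads are hard to assign, and exons of Ftl1 overlap Gm10252 on the opposite strand and Gm22133 on the same strand, so both values are uncertain.

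Counts were also set against the haemoglobin counts of the same library, where the groups overlapped for 9 of the 10 genes. Per 1000000 haemoglobin counts, Ftl1 had 9426, 8636, 9582 and 11136 counts in control replicates 1 to 4 and 9519.7, 9402, 9537 and 10498 in stress replicates 1 to 4, a ratio of the group means (stress over control) of 1.00. Fth1 had 3184 ± 343 and 2828 ± 443 (SD, n = 4 per group), a ratio of 0.888, and Blvrb 181 ± 40.0 and 201 ± 28.9, a ratio of 1.11. The ratio was 0.919 for Slc40a1, 0.813 for Slc11a1, 1.12 for Hmox1, 1.64 for Hp, 0.629 for Steap3 and 0.470 for Cd163, so values near 1 were not limited to ferritin and Blvrb. Tfrc had 28.5, 42.5, 49.0 and 22.0 counts per 1000000 haemoglobin counts in the control samples and 15.1, 13.8, 9.27 and 21.5 in the stress samples, every stress sample below every control sample, with a ratio of 0.420. Among all tested genes the median of this ratio was 0.485. Of these genes 20% had every stress sample below and 0.0427% every stress sample above (0 of the 10). Of 11 tested reticulocyte and erythroid markers 1 rose (Hba-a2, a near-identical copy of another globin gene) and 0 fell, with 6 higher and 0 lower at an unadjusted p below 0.05 of edgeR's test and 5 and 0 past an adjusted p of 0.05 with DESeq2 (limma-voom 4 and 0). The same criteria placed 18.2% and 13% of all tested genes higher and lower unadjusted, 12.2% and 4.76% with DESeq2 and 11.6% and 3.84% with limma-voom. The median log2 fold change of these markers was 1.06, in the range of those of Fth1, Ftl1 and Blvrb (0.86, 1.03 and 1.11). EdgeR placed 2 higher and 0 lower on total counts (median 0.24) and 3 and 0 on counts outside haemoglobin genes (0.69), where 7 of the 11 were tested, since the 4 haemoglobin genes among them are left out on that scale. Of all tested genes it placed 10.4% and 3.69% higher and lower with TMM, 0.444% and 49.6% on total counts and 4.69% and 33.7% on counts outside haemoglobin genes. The erythroid markers' summed level was 549229, 405700.1, 304559 and 667722 CPM in the control samples and 873707, 1006365, 1545869.7 and 583255 CPM in the stress samples, with overlap, and Hbb-bs was the most abundant. In bulk RNA, fewer cells of a type and less RNA per cell cannot be told apart, and the part of immature red cells in these values was not tested.

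**Figure D3:**
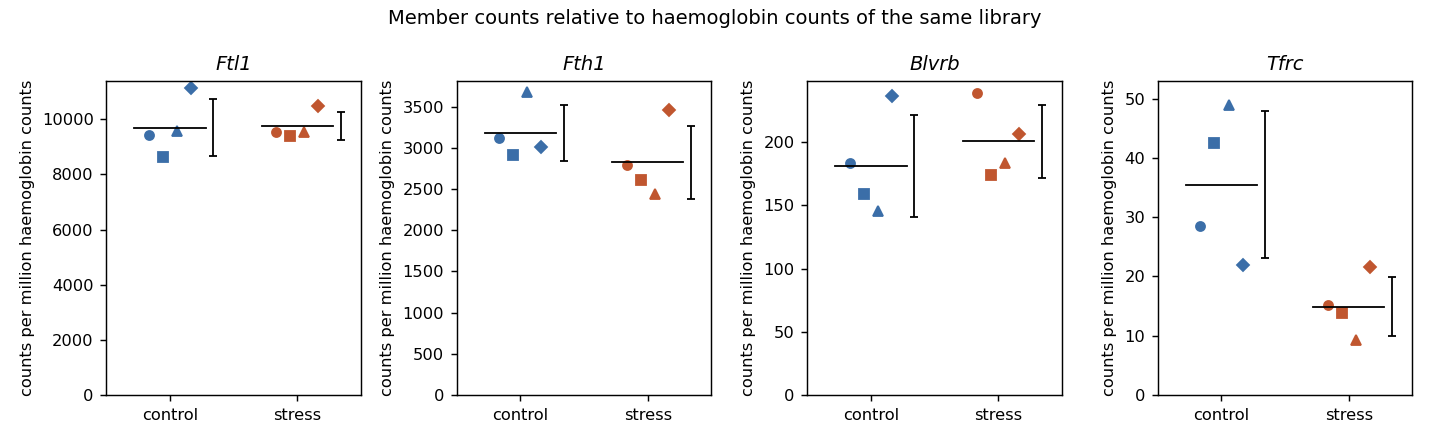
Counts of Ftl1, Fth1, Blvrb and Tfrc per 1000000 haemoglobin counts of the same library (vertical axes, starting at 0), in the control (blue) and stress (red) samples. Points are samples (circle, square, triangle and diamond for replicates 1 to 4), lines are group means and bars the SD (n = 4). The groups overlap for Ftl1, Fth1 and Blvrb, and every stress sample lies below every control sample for Tfrc, as for 20% of all tested genes.

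With TMM, Fth1, Ftl1 and Blvrb varied alike across the samples of a group. With the group means removed, log2 CPM of Fth1 and Ftl1 had a Pearson r of 0.99 over the 8 samples, Ftl1 and Blvrb 0.96, and Fth1 and Blvrb 0.94, as a description of libraries that share a scaling factor per sample. On total counts alone these were 0.26, 0.83 and 0.12, so of the 3 pairs only Ftl1 and Blvrb stayed high. With summed haemoglobin CPM, r was 0.97 for Fth1, 0.98 for Ftl1 and 0.93 for Blvrb (Spearman's rho 1.00, 0.95 and 0.93), and 0.96, 0.98 and 0.95 over the 6 samples left without stress replicates 3 and 4, the farthest from the median. Haemoglobin counts varied little (17382877 to 20873696), while the TMM-normalized library size ran from 13175411 to 69187106. Haemoglobin CPM thus largely follows the library size, and any gene with steady counts follows it too. The share of all tested genes with such an r was not computed. On total counts alone, where the TMM factor plays no part, r with haemoglobin was 0.76 for Ftl1, 0.65 for Blvrb and -0.34 for Fth1, so the relation of Fth1 with haemoglobin was seen with TMM only. Haemoglobin itself makes up 51.9% to 75.5% of these totals, so this scale is not independent of it either. The promoters of Ftl1 and Blvrb are shown because r with haemoglobin was above 0 for these genes on both scales, though lower on total counts. The 250 bases before the start site are from a RefSeq promoter table (GRCm38.p6), read here for 7 of the 10 genes, and promoters of Hp, Hmox1 and Slc40a1 were not analysed here. Capitals mark matches, on either strand, to the C/EBP motif TTNNGNAA, the antioxidant response element TGANNNNGC or the GATA motif AGATAA, which 36.8%, 35.2% and 9.99% of the 32851 RefSeq promoter windows of that length held, and the matches printed do not overlap. Ftl1 (chr7:45459887-45460136, minus strand) had 1 C/EBP match and Blvrb (chr7:27447728-27447977, plus strand) 1 antioxidant response element match, and neither window held the GATA letters. A second window of Blvrb (chr7:27452168-27452417, plus strand), inside the gene, held 2 antioxidant response element matches and neither other motif, and is not printed. The window of Ftl1 and the first of Blvrb read:
Ftl1: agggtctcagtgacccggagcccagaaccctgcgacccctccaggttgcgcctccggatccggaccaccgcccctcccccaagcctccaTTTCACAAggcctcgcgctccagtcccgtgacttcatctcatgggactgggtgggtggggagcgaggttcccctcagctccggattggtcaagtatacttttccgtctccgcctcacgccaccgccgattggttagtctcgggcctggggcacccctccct
Blvrb: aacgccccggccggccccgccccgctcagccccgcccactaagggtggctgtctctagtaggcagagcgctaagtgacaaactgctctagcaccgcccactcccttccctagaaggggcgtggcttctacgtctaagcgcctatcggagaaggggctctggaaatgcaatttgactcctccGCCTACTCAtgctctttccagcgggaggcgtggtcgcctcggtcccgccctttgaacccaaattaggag

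Slc40a1 (chr1:45908068-45926523, minus strand) encodes ferroportin, the iron exporter. It was measured at 13.7, 13.1, 7.17 and 16.9 CPM in control replicates 1 to 4 and at 18.2, 19.7, 16.5 and 27.2 CPM in stress replicates 1 to 4. The groups overlapped, since control replicate 4 lay above stress replicate 3, and stress replicate 4 was highest. The mean went from 12.7 ± 4.06 to 20.4 ± 4.70 CPM (mean ± SD, n = 4 each), with a log2 fold change of 0.70 (standard error 0.23) that did not pass edgeR's quasi-likelihood test (adjusted p = 0.0654). It passed with DESeq2 (adjusted p = 0.0392), with limma-voom (0.0415) and without control replicate 4 (0.0235), and was 0.05 on total counts alone, and the adjusted p ran from 0.00954 to 0.914 over the 18 alternative fits. Across the samples of a group it moved with the neutrophil markers: with the group means removed, r with their summed CPM was 0.96 over the 8 samples (rho 0.90), 0.87 over the 6 samples without control replicates 3 and 4, and 0.98 over the 8 on total counts alone. Slc40a1 had an r of 0.16 with summed haemoglobin CPM over the 8 samples. Without stress replicates 3 and 4 it had 0.92 over 6 samples, and on total counts alone -0.51 over the 8. The genes most like it among 5100 genes with a mean of at least 10 CPM were Cxcr2 (r = 0.98), Mmp9 (0.98) and Cd101 (0.97), by the same measure with TMM. Cxcr2 and Mmp9 are in the neutrophil list and so part of the sum above. Among so many candidates, high values of r are found for any gene. The share of all tested genes with such an r with the neutrophil sum was not computed.

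Slc11a1 (chr1:74375195-74386062, plus strand) encodes the metal transporter Nramp1 of the phagosome membrane in macrophages and neutrophils, and the C57BL/6 strain is known to carry an allele that impairs the protein, which RNA levels do not show. It was measured at 9.89, 8.01, 5.17 and 9.97 CPM in control replicates 1 to 4 and at 14.2, 10.7, 13.3 and 12.4 CPM in stress replicates 1 to 4. All stress samples exceeded all control samples, and control replicate 3 was lowest. It rose from 8.26 ± 2.25 to 12.6 ± 1.50 CPM (mean ± SD, n = 4 each), with a log2 fold change of 0.62 (adjusted p = 0.0422 in edgeR's quasi-likelihood test, standard error 0.19). The call depended on the scale and on single samples. It ended on total counts alone, where the log2 fold change was -0.11 (standard error 0.34, adjusted p = 0.797), and on the counts outside haemoglobin genes (0.24, adjusted p = 0.295). It also ended without control replicate 2 (log2 fold change 0.61, adjusted p = 0.109) or 3 (0.45, 0.0812) and without stress replicate 1 (0.59, 0.0970), 3 (0.62, 0.0958) or 4 (0.63, 0.0595). Over the 18 alternative fits the adjusted p ran from 0.0268 to 0.797. Its promoter is shown as the only one analysed here of a gene that rose (chr1:74374953-74375202, plus strand), with 3 C/EBP matches and 1 antioxidant response element match in capitals, as spelled out for Ftl1 and Blvrb:
Slc11a1: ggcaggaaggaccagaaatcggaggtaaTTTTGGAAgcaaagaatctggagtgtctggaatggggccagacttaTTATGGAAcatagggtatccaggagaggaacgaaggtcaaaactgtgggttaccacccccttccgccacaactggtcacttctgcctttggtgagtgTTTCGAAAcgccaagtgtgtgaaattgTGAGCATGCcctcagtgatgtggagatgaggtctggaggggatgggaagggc

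Hmox1 (chr8:75093621-75100589, plus strand) encodes heme oxygenase 1, the inducible enzyme that opens the heme ring and frees iron and biliverdin. It was measured at 2.42, 2.13, 2.23 and 2.74 CPM in control replicates 1 to 4 and at 5.04, 6.31, 5.46 and 4.74 CPM in stress replicates 1 to 4. All stress samples exceeded all control samples, and within each group the samples were close together. Hmox1 rose from 2.38 ± 0.271 to 5.39 ± 0.682 CPM (mean ± SD, n = 4 each), with a log2 fold change of 1.18 (adjusted p = 0.00107 in edgeR's quasi-likelihood test, standard error 0.17), on 87 to 154 counts in the control libraries and 72 to 148 in the stress libraries. It stayed past the test in 8 of the 8 fits that left out a sample, and did not pass on total counts alone, where the log2 fold change was 0.39 and the groups overlapped (standard error 0.37, adjusted p = 0.357, within a range from 1.82e-08 to 0.357 over the 18 alternatives).

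Blvrb (chr7:27447978-27466144, plus strand) encodes biliverdin reductase B, an enzyme abundant in red cells that acts on products of heme breakdown. It was measured at 95.8, 61.7, 42.7 and 149.9 CPM in control replicates 1 to 4 and at 198, 168, 273 and 115 CPM in stress replicates 1 to 4. Control replicate 4 lay above stress replicate 4, so that the groups overlapped, and stress replicate 3 was highest, as for ferritin. The log2 fold change of 1.11 (standard error 0.35) did not pass edgeR's quasi-likelihood test (adjusted p = 0.0570). It passed with limma-voom (0.0333), on the counts outside haemoglobin genes (0.0214) and without control replicate 4 (0.00908) or stress replicate 4 (0.0435), and the adjusted p ran from 0.00908 to 0.318 over the 18 alternatives. Among genes with a mean of at least 10 CPM, the 3 most like Blvrb within the groups with TMM were Tspo2 (r = 1.00), Smox (0.99) and Alas2 (0.99), the last encoding the erythroid enzyme that starts heme synthesis. Such high values of r are found for any gene among so many candidates.

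Hp (chr8:109575128-109579172, minus strand) encodes haptoglobin, the plasma protein that binds free haemoglobin, made mainly by the liver and also stored in neutrophil granules. It was measured at 26.5, 18.6, 14.4 and 22.2 CPM in control replicates 1 to 4 and at 67.0, 34.9, 66.6 and 76.6 CPM in stress replicates 1 to 4. All stress samples exceeded all control samples, with stress replicate 2 nearest to the control range. Hp rose from 20.4 ± 5.15 to 61.3 ± 18.2 CPM (mean ± SD, n = 4 each), with a log2 fold change of 1.59 (adjusted p = 0.00191 in edgeR's quasi-likelihood test, standard error 0.24). It was the one gene of the 10 that was past the test upward on every scale and in each of the 18 alternative fits (adjusted p from 2.79e-08 to 0.0281), and without stress replicate 3 its adjusted p of 0.0276 no longer met the thresholds of the study. Scaled by total counts it was 31.0, 27.4, 25.6 and 22.4 CPM in the control samples and 53.7, 25.4, 33.8 and 84.2 CPM in the stress samples, where the groups overlapped, and the log2 fold change was 0.89 (standard error 0.35, adjusted p = 0.0281, same test). The plasma protein genes Alb, Apoa1, Ttr and Apoa2, markers of hepatocytes, were at or near 0: their summed level was 0 to 0.278 CPM in the 8 samples, and 0 of the 4 reached the count minimum for the test.

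Of 10 neutrophil markers 9 rose and 0 fell (10 higher and 0 lower at an unadjusted p below 0.05 of edgeR's test, 10 and 0 past an adjusted p of 0.05 with DESeq2 and 9 and 0 with limma-voom), with a median log2 fold change of 1.49. Their summed level was 336, 290.4, 195 and 384 CPM in control replicates 1 to 4 and 630.0, 608, 645 and 889 CPM in stress replicates 1 to 4, without overlap, and Csf3r, which did not pass, was the most abundant. Of all tested genes edgeR placed 10.4% and 3.69% higher and lower with TMM, and 18.2% and 13% at an unadjusted p below 0.05 (DESeq2 12.2% and 4.76%, limma-voom 11.6% and 3.84%). The scale mattered: edgeR placed 5 higher and 0 lower on total counts (median 0.75) and 9 and 0 on counts outside haemoglobin genes (1.11). All tested genes gave 0.444% and 49.6% on total counts (median -0.82) and 4.69% and 33.7% on counts outside haemoglobin genes (-0.43), and these shares and medians apply to each marker list below. The sums on total counts, 346 to 428 CPM in the control samples and 327 to 978 in the stress samples, overlapped. Per 100 counts of the neutrophil genes S100a8 and S100a9 in the same library, Hp had 37.8, 25.9, 26.5 and 25.5 counts in the control samples and 40.8, 21.2, 26.8 and 34.8 in the stress samples. The groups overlapped on this measure, with means of 28.9 ± 5.94 and 30.9 ± 8.66 (SD, n = 4 per group) and a ratio of 1.07. On the same measure Slc11a1, Slc40a1, Fth1, Tfrc and Cd163 were lower in all stress samples than in all control samples, with ratios of 0.565, 0.597, 0.655, 0.309 and 0.345. The groups overlapped for Ftl1, Blvrb, Hmox1 and Steap3, with ratios of 0.749, 0.813, 0.824 and 0.466. Every stress sample was below for 84.0% of all tested genes, whose median ratio was 0.350, and the reverse for 0.0171% (0 of the 10). S100a8 and S100a9 themselves rose, by 1.49 and 1.50 in log2 (edgeR, adjusted p = 7.66e-04 and 7.66e-04). With the group means removed, r with the summed neutrophil markers was 0.70 for Hp and 0.79 for Slc11a1 over the 8 samples, 0.82 and 0.90 on total counts, and 0.67 and 0.29 with TMM but without control replicates 3 and 4, so with TMM the value of Slc11a1 depended on these 2 samples. The part of the neutrophils in the values of these genes was not tested.

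Of 8 classical monocyte markers 6 rose and 0 fell (6 and 0 also at an unadjusted p below 0.05, with DESeq2 and with limma-voom). Their summed level was 453, 359, 419 and 481 CPM in the control samples and 1201, 701, 1065 and 1097 CPM in the stress samples, without overlap (most abundant gene Lyz2, median log2 fold change 1.29). For these markers edgeR placed 3 higher and 0 lower on total counts (median 0.54) and 4 and 0 on counts outside haemoglobin genes (0.90). Their sums on total counts overlapped (484 to 742 CPM in the control samples and 509.7 to 1207 in the stress samples). All 8 platelet markers rose (median 0.99, most abundant gene Ppbp), from a summed 1807, 1289, 1246 and 1869 CPM to 2754, 3177, 3604 and 2793 CPM. This too depended on the scale, with 0 higher and 0 lower on total counts (median 0.22) and 8 and 0 on counts outside haemoglobin genes (0.61). Platelet sums on total counts overlapped (1879 to 2209 CPM in the control samples and 1828 to 3072 in the stress samples). Of 7 B cell markers 4 fell and 0 rose (5 lower and 0 higher at an unadjusted p below 0.05, 4 and 0 with DESeq2 and with limma-voom, median -0.48). Their sum was 945, 1144, 1162 and 960.5 CPM in the control samples and 807, 639, 818 and 854 CPM in the stress samples, without overlap (Cd79a most abundant). The other scales gave 0 higher and 7 lower on total counts (median -1.27) and 0 and 7 on counts outside haemoglobin genes (-0.89). B cell sums on total counts did not overlap either (966 to 2061 CPM in the control samples and 415 to 939 in the stress samples). Of 6 markers of non-classical monocytes Cd300e and Ace fell and 0 rose, with the same counts by all 4 criteria and a median of -0.43, and the sum was 224, 193, 194 and 265 CPM and 242, 201, 168 and 221 CPM, with overlap (Itgal most abundant). Here edgeR placed 0 higher and 5 lower on total counts (median -1.17) and 0 and 5 on counts outside haemoglobin genes (-0.81). These sums on total counts did not overlap (261 to 344 CPM in the control samples and 85.2 to 243 in the stress samples). With TMM none of 7 T cell and 4 NK cell markers passed in either direction with edgeR, DESeq2 or limma-voom, and at an unadjusted p below 0.05 edgeR placed 0 T cell markers and 1 NK cell marker, which was lower. The T cell markers summed to 285, 292, 328 and 305 CPM in the control samples and 268, 347, 327 and 279 CPM in the stress samples (median -0.03, Lck most abundant). The NK cell markers summed to 41.8, 45.8, 49.7 and 70.7 CPM and 43.3, 37.9, 89.9 and 33.2 CPM (median -0.10, Gzma most abundant), both with overlap. On the other scales T cell markers were 0 higher and 4 lower on total counts (median -0.86) and 0 and 3 on counts outside haemoglobin genes (-0.44). NK cell markers were 0 higher and 4 lower on total counts (median -0.96) and 0 and 2 on counts outside haemoglobin genes (-0.51). Of all tested genes 49.6% were lower on total counts (median -0.82) and 33.7% on counts outside haemoglobin genes (-0.43), so the medians of the T cell markers were near those of any gene. The sums on total counts overlapped for T cells (306 to 581 CPM in the control samples and 166 to 307 in the stress samples). For NK cells they did not overlap (48.9 to 88.1 CPM in the control samples and 27.5 to 45.6 in the stress samples). The part of these cell types in the values of the 10 genes was not tested either.

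Cd163 (chr6:124304656-124330527, plus strand), the macrophage receptor for haptoglobin bound to haemoglobin, had 16 to 40 counts in the control samples and 8 to 17 in the stress samples. In CPM these were 0.505 to 0.755 and 0.510 to 0.758, ranges that overlapped almost fully. The log2 fold change of -0.07 (adjusted p = 0.922 in edgeR's quasi-likelihood test, standard error 0.35) changed sign without control replicate 2 (0.04) or stress replicate 2 (0.03), and at this depth no difference was detectable. It was -0.86 on total counts (standard error 0.55, adjusted p = 0.164) and -0.47 on the counts outside haemoglobin genes (adjusted p = 0.376), near the medians of all tested genes on these scales. Tissue macrophages, the main site of heme recycling, left few counts: 2 of the 10 macrophage markers were tested (0 past the test with edgeR or DESeq2, 2 higher at an unadjusted p below 0.05 of edgeR's test and 0 in either direction on the other scales). Clec4f and Marco had 0 counts in all samples, and the summed level was 6.47, 5.24, 5.17 and 6.37 CPM in the control samples and 14.3, 5.61, 6.76 and 10.2 CPM in the stress samples, with overlap and with Adgre1 the most abundant. A count of 0 allows up to 3 counts in a library, which is 0.0769 to 0.115 CPM of the total counts.

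Ratios of the counts of 2 members need no scaling between libraries, and 8 were computed. The log2 ratio of Tfrc to Fth1 was -6.78, -6.10, -6.23 and -7.10 in control replicates 1 to 4 and -7.53, -7.56, -8.04 and -7.33 in stress replicates 1 to 4. Every stress sample lay below every control sample, with a difference of the means (stress minus control) of -1.07 (two-sided exact permutation test, p = 0.0286, the lowest value possible with 4 against 4 samples, and 0.0762 adjusted over the 8 ratios). With Tfrc replaced by any of 11544 tested genes without a count of 0, 38.9% had every stress sample below and 0.269% above (median difference -0.89), so the median gene shifted nearly as far against Fth1. The log2 ratio of Hp to Cd163 was 5.29, 4.62, 4.64 and 5.46 in the control samples and 6.47, 6.10, 6.78 and 7.14 in the stress samples. Every stress sample was above, with a difference of 1.62 (same test, exact p = 0.0286, adjusted 0.0762). Hp over any other gene in place of Cd163 was above in every stress sample for 74.8% of genes and below for 0.0606%, with a median difference of 1.60, about as large as that against Cd163. The log2 ratio of Hp to Slc11a1 was 1.42, 1.22, 1.48 and 1.16 in the control samples and 2.24, 1.71, 2.33 and 2.62 in the stress samples, higher in every stress sample by a mean of 0.91 (same exact p and adjusted p). This was less than the median for Hp over any gene, and with any gene in place of Hp over Slc11a1 0.728% lay above and 38.1% below (median difference -0.69). None of the 3 passed 0.05 after adjustment. The light to heavy chain ratio of ferritin (Ftl1 to Fth1) differed by 0.19 with overlapping groups (exact p = 0.229, adjusted 0.366), and the groups also overlapped for Steap3 to Tfrc (0.39), Hmox1 to Blvrb (-0.02), Slc11a1 to Slc40a1 (-0.07) and Hmox1 to Fth1 (0.32), with exact p-values from 0.171 to 1.00.

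**Figure D4:**
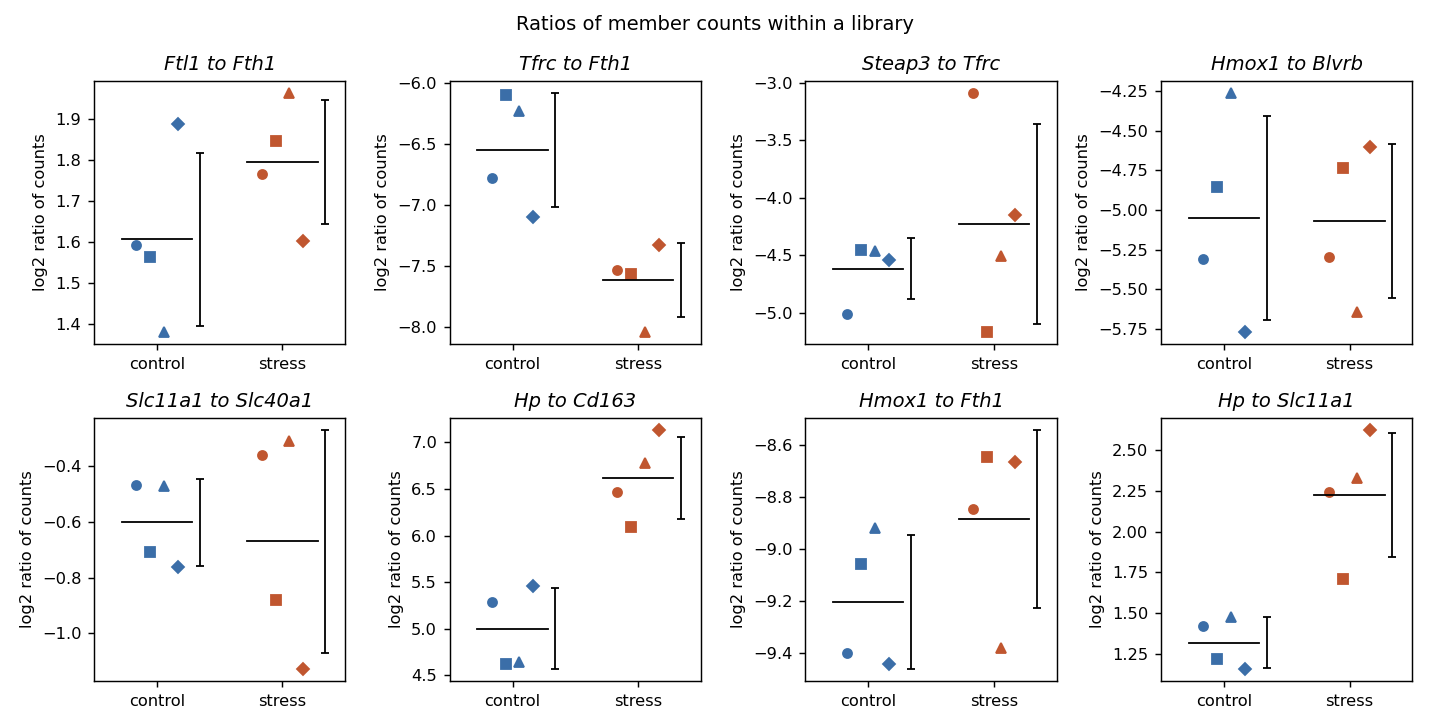
Log2 ratio of the counts of paired genes within each library (vertical axes, log scale, not starting at 0), in the control (blue) and stress (red) samples, with the circle, square, triangle and diamond for replicates 1 to 4. Lines are group means and bars the SD (n = 4). The groups separate for Tfrc to Fth1 (stress below, as for 38.9% of genes over Fth1) and for Hp to Cd163 and Hp to Slc11a1 (stress above, as for Hp over 74.8% of genes).

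Beyond the 10 genes, 45 other genes of iron handling were looked up and 31 were tested, 22 with a positive and 9 with a negative log2 fold change (median 0.26). By edgeR's quasi-likelihood test 6 rose and 0 fell (all tested genes 10.4% and 3.69%). At an unadjusted p below 0.05 it placed 12 higher and 1 lower (all genes 18.2% and 13%), and past an adjusted p of 0.05 DESeq2 placed 9 and 0 (all genes 12.2% and 4.76%) and limma-voom 7 and 0 (all genes 11.6% and 3.84%). On total counts 2 were higher and 7 lower, and on counts outside haemoglobin genes 5 and 6 (all genes 0.444% and 49.6%, and 4.69% and 33.7%). Lcn2, the siderophore-binding protein of neutrophil granules, rose from 4.72 ± 1.13 to 20.4 ± 6.25 CPM (mean ± SD, n = 4 each) (log2 fold change 2.12, standard error 0.24, adjusted p = 9.00e-04), and Trf, transferrin itself, rose from 4.93 ± 1.20 to 15.1 ± 4.53 CPM (mean ± SD, n = 4 each) (log2 fold change 1.64, standard error 0.23, adjusted p = 0.00148). Both separated, stress above control, and both stayed past the test on total counts alone (1.41, adjusted p = 0.00585, and 0.94, adjusted p = 0.0214). The mitochondrial iron-sulfur cluster genes Glrx5 (log2 fold change 1.14) and Iscu (1.00) rose with overlapping groups (edgeR, adjusted p = 0.0458 and 0.0464). These calls were near the threshold: each passed in 7 of 18 alternative fits (adjusted p from 0.0166 to 0.279 for Glrx5 and 0.00794 to 0.549 for Iscu). Both ended on total counts (0.279 and 0.549), with upper quartile factors (0.0649 and 0.0627), with no count filter (0.172 and 0.133), with 10 counts required in all samples (0.0609 and 0.0552), and without any of control or stress replicates 1 to 3. The log2 fold changes of Glrx5 and Iscu were 0.37 and 0.21 on total counts. They were 1.15 and 1.01 with upper quartile factors and with no count filter, and 1.13 and 0.99 with 10 counts in all samples. Without any of these replicates they ran from 0.90 to 1.28 and from 0.79 to 1.12. Fbxl5, which marks an iron regulatory protein for degradation, and Nfe2l2, a regulator of antioxidant genes including Hmox1, rose by 0.47 and 0.44 with TMM (edgeR, adjusted p = 0.0228 and 0.0200), but were -0.29 and -0.34 on total counts alone (adjusted p = 0.472 and 0.398), and did not pass on the counts outside haemoglobin genes (0.747 and 0.859). Without control replicate 1, 2 or 3, only Lcn2 and Trf of the 6 stayed past the test, and without control replicate 4 it was passed by 9 genes upward. Among all tested genes, 948 of 11560, 617 of 11531 and 690 of 11491 were higher without control replicates 1, 2 and 3. Without control replicate 4 this count was 1425 of 11595, and with all samples 1222 of 11718. Of the genes that did not pass, Slc25a37, the mitochondrial iron importer, Slc48a1, a heme transporter, and Ncoa4, the receptor that delivers ferritin for breakdown, had the highest mean CPM, with log2 fold changes of 0.97, 0.84 and 0.78 (edgeR, adjusted p = 0.0603, 0.0918 and 0.0811). Hamp, the liver hormone that closes ferroportin, was among the 14 genes not tested, and Steap1, Heph and Ftmt had 0 counts in all samples.

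All 9 genes of heme synthesis were tested, 7 with a positive and 2 with a negative log2 fold change (median 0.35). Urod alone rose, from 23.8 ± 10.7 to 45.3 ± 8.89 CPM (mean ± SD, n = 4 each) (edgeR's quasi-likelihood test, log2 fold change 0.93, standard error 0.27, adjusted p = 0.0402), while 0 fell. One of 9 is about the share of all tested genes (10.4%). At an unadjusted p below 0.05, 4 were higher and 0 lower (all genes 18.2% and 13%), and 2 and 0 at an adjusted p below 0.05 with DESeq2 and with limma-voom (all genes 12.2% and 4.76%, and 11.6% and 3.84%). The groups of Urod overlapped, and its call ended on total counts alone, where the log2 fold change was 0.19. It also ended, at log2 fold changes of 0.93 to 0.94, with upper quartile factors and with either other count filter. Leaving out any of control replicates 1 to 3 or stress replicates 1 to 3 ended it too (log2 fold change 0.74 to 0.99). Alas2 and Fech had log2 fold changes of 0.85 and 0.79 (adjusted p = 0.197 and 0.148, same test). Of 8 genes known for iron-responsive elements, 4 of them among the 10 described here, 0 passed edgeR's test in either direction (all genes 10.4% and 3.69%), and their median was 0.45. The unadjusted test placed 3 of them higher and 0 lower at 0.05, and DESeq2 and limma-voom each 2 and 0 after adjustment, against the shares of all genes just given. The medians on total counts were -0.51 for the other iron genes, -0.45 for heme synthesis and -0.23 for these 8 genes, each above the -0.82 of all tested genes.

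**Figure D5:**
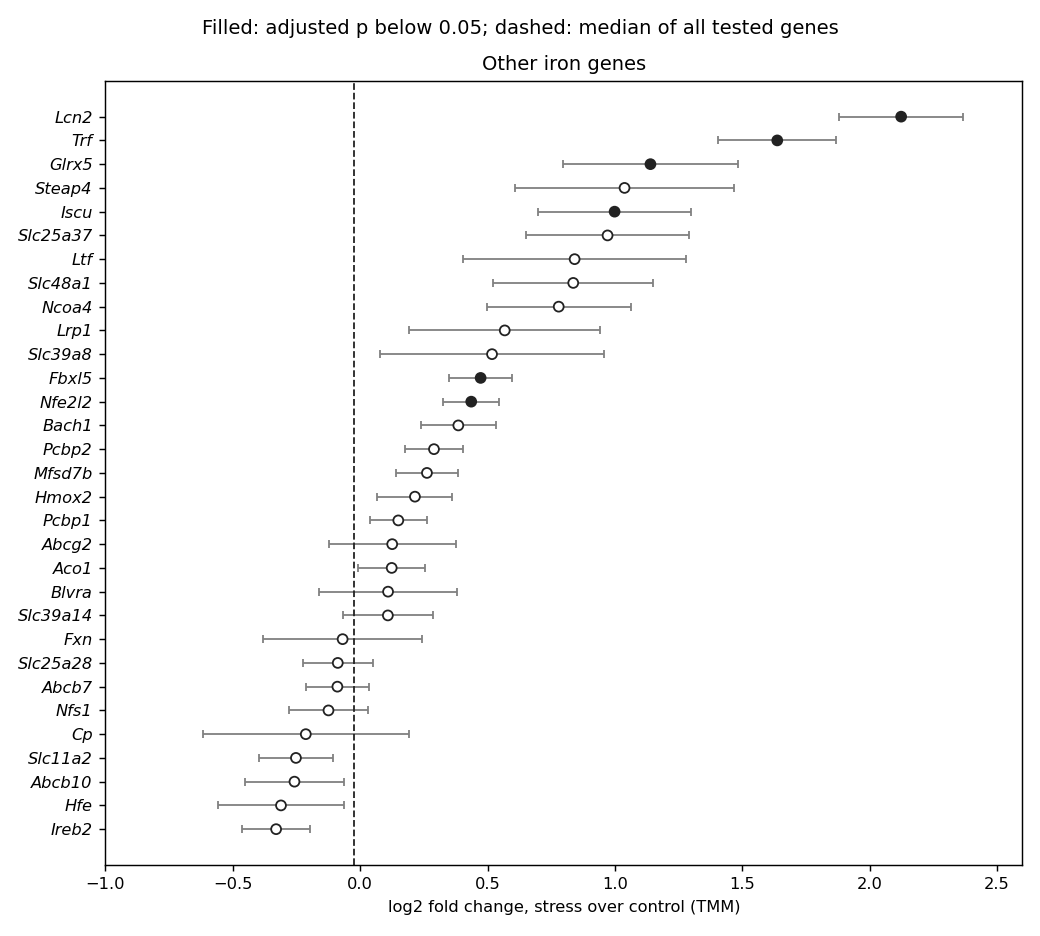
Log2 fold change (stress over control, TMM scale) with its standard error of the 31 tested other iron genes. Filled points have an adjusted p below 0.05 and the dashed line is the median of all tested genes (-0.03). The 6 filled points are Lcn2, Trf, Glrx5, Iscu, Fbxl5 and Nfe2l2, of which Fbxl5 and Nfe2l2 turn below 0 on total counts alone.

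The genes whose log2 CPM varied most like that of other members, with the group means removed and over the 8 samples on the TMM scale, were taken from the 5100 or 5101 genes with a mean of at least 10 CPM, so that high values of r are found for any gene. For the storage genes they were Atp5l (1.00), Taldo1 (0.99) and S100a1 (0.99) for Fth1 and Bag1 (1.00), Bola3 (1.00) and Tceb2 (0.99) for Ftl1. For Tfrc they were Dnajb11 (0.93), Btg1 (0.92) and Eif3j1 (0.91). Slc11a1 was most like March8 (0.97), Incenp (0.97) and Ctnnb1 (0.97), and Hmox1 most like Mob2 (0.97), Mob3a (0.95) and Zfp12 (0.94). For Hp they were Xbp1 (0.95), Tbc1d10b (0.95) and Fes (0.94), and for Cd163 Colgalt1 (0.91), Fmnl3 (0.90) and Phc2 (0.89). Of the 45 pairs of members, 11 had an r above 0.6 with TMM, the 3 among Fth1, Ftl1 and Blvrb and 8 more. These were Slc11a1 with Blvrb (0.77, and 0.10 on total counts), Hp (0.76, 0.89), Slc40a1 (0.72, 0.88) and Ftl1 (0.61, -0.29). The others were Hmox1 with Ftl1 (0.72, -0.58), Fth1 (0.69, 0.37) and Blvrb (0.64, -0.55), and Steap3 with Cd163 (0.66, 0.84). On total counts 14 pairs were above 0.6, of which 4 were among these 11. Hmox1 and Hp, the members with the largest fold changes, had -0.34 with TMM and 0.37 on total counts.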

How the data were processed

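Whole-blood RNA libraries of 8 mice (TruSeq) were sequenced, 1 per sample, and the authors deposited whole-number read counts per gene symbol without normalization. HISAT2, featureCounts and the mm10 build are named in the submitters' processing notes, without versions, and the annotation and strand setting are not given in the sources used here, so overlapping genes cannot be told apart. The total counts per sample set the precision, which is low for Steap3 and Cd163. From these counts, edgeR 4.0.16 in R 4.3.3 gave TMM factors and the robust quasi-likelihood test for genes reaching 10 counts in 4 samples or more (library sizes taken after this filter), with Benjamini-Hochberg adjustment, and was tested on simulated data. There, both groups had the same mean levels apart from a small set of genes changed equally up and down. The choice of scale was therefore not tested by the simulation. P-values set the difference between the groups against the variation between samples. Standard errors follow from the coefficient and its F statistic. Correlations with TMM used log2 CPM of each gene with a prior count of 2. On total counts a small constant was added to the CPM instead, and summed levels had nothing added. Ratios used exact permutation tests over all 70 assignments of samples. Alternatives were DESeq2 1.42.0, limma-voom (limma 3.58.1), other scalings and count filters, replicate number as a block, and fits without each sample in turn. Gene positions are from GENCODE M21 (GRCm38, equal to mm10), with all 10 symbols matched, and promoters from RefSeq (GRCm38.p6). Flvcr1 and Flvcr2 were found under the older symbols Mfsd7b and Mfsd7c, and Ahsp was not matched. The members and lists were chosen with earlier results of these data known. Scaling by counts outside haemoglobin genes, levels per haemoglobin or S100a8 and S100a9 counts, and ratios with any gene in place of a member were added after values were seen. Named genes were the members, list genes past the test, up to 3 others of each list by mean CPM, and the 3 genes most like each member. Some named results are not reported here. Lists were other iron genes, heme synthesis, transcripts with iron-responsive elements, and markers of neutrophils, classical and non-classical monocytes, tissue macrophages, reticulocytes, platelets, B, T and NK cells and hepatocytes.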

Additional observations from a re-analysis of the deposited data

Results flagged for a closer look

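In 126 groups of 4 samples (each of the 10 genes, the 8 ratios, the other tested iron and heme genes and the library totals, in either group), a sample was set against the other 3 with Dixon's ratio, which by chance flags about 1 in 20 groups, and 5 lay past the 95% critical value. The log2 ratio of Steap3 to Tfrc was -5.01 in control replicate 1, below the other control samples (-4.54 to -4.45), from 17 Steap3 counts. Slc39a8, a metal importer, was at 1.82 CPM in stress replicate 3, above the 0.535 to 0.672 of the other stress samples. Pcbp1, an iron chaperone, was at 51.8 CPM in stress replicate 1 against 42.0 to 42.8. Abcb10 was at 3.78 CPM in control replicate 4, below the 5.09 to 5.34 of the other control samples, and Nfs1 was at 8.58 CPM in stress replicate 3 against 5.61 to 6.05. None of the 10 genes had a sample past this value in CPM.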

How the results depend on the processing

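Other count filters, DESeq2 size factors, upper quartile factors and leaving out haemoglobin genes before TMM kept the 3 rises and 0 falls among the 10 genes within 1.5 times, and the 72 alternative values of the 8 ratios moved by less than 1 within-group SD (root of the mean of the variances of both groups). Without 1 sample, the ratio of Steap3 to Tfrc still ranged from 0.00563 to 0.70, and those of Hmox1 to Blvrb (-0.26 to 0.24) and Slc11a1 to Slc40a1 (-0.19 to 0.0848) changed sign. The cause of the shifts below was not tested. On total counts alone, 1 of the 10 genes was higher and 1 lower, 0 met the thresholds of the study, and over all tested genes 52 were higher and 5811 lower, against 1222 and 432. Other iron genes were then 2 higher and 7 lower, heme synthesis genes 0 and 2, and genes with iron-responsive elements 0 and 3. Scaled by counts outside haemoglobin genes (chosen after seeing the data), 1 of the 10 was lower and 1 met the thresholds of the study, all genes gave 549 higher and 3945 lower, and other iron genes were 5 higher and 6 lower, heme synthesis genes 1 and 1, and genes with iron-responsive elements 1 and 2. DESeq2 placed 5 of the 10 genes higher and limma-voom 6 (12.2% and 11.6% of all tested genes), both with 2 heme synthesis genes and 2 with iron-responsive elements higher. With upper quartile factors, no count filter or at least 10 counts in all samples, 0 heme synthesis genes were higher, and with no count filter 1 gene with iron-responsive elements (Fth1). Among all tested genes these fits placed 1149 of 11718, 1131 of 15930 and 1172 of 10367 higher, in that order. At an adjusted p below 0.01, 538 genes were higher and 38 lower. Reversed log2 fold changes were those of Slc11a1 (-0.11) and Steap3 (-0.45) on total counts, Steap3 (-0.0747) on counts outside haemoglobin genes and without stress replicate 1 (-0.14), and Cd163 without control replicate 2 (0.0365) or stress replicate 2 (0.0332), over a leave-one-out range of -0.14 to 0.60 for Steap3 and -0.17 to 0.0365 for Cd163. Of 178 alternative values of the 10 genes, 148 kept direction and side of the threshold, 17 newly passed it, 7 lost it and 6 reversed. Leaving out 1 sample gave 2 to 7 of the 10 genes higher (most without control replicate 4) and 0 lower, 1 to 3 past the thresholds of the study, 617 to 1425 genes higher and 81 to 726 lower among all tested, and 2 to 9 other iron genes, 0 to 2 heme synthesis genes and 0 to 3 genes with iron-responsive elements higher. The labels number the replicates 1 to 4 in both groups. Deviations of same-numbered samples from their group means correlated at 0.06, 4.43e-04, -0.04 and -0.16, and not every sample correlated best with its own number. These values gave no sign of pairing but cannot exclude it, and the labels do not say whether same-numbered samples were handled together. With a replicate block, 4 of the 10 genes rose (Slc40a1, at a log2 fold change of 0.71 and an adjusted p of 0.00954, newly so), 0 heme synthesis genes and 1 gene with iron-responsive elements (Slc40a1) were higher, Glrx5 and Iscu did not pass (0.172 and 0.174), and 919 genes of all 11718 tested were higher and 240 lower. Steap3 and Cd163, with 8 to 45 counts per sample, are limited by depth.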
